A study of Mus musculus with 12 samples.

Results

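The genes described here are 38 interferon-stimulated genes outside the large and well-known families (Ifit, Oas, Mx and the guanylate-binding proteins). They were chosen by name, as a list of symbols, and all 38 were found among the 54532 gene identifiers of the count table. They were measured by RNA sequencing in B lymphocytes sorted from 3 wild type mice and from 3 mice labelled Tmem173-/-. Tmem173 encodes STING, the membrane receptor that binds cyclic dinucleotides. Each genotype had 3 control and 3 cGAMP libraries, which makes 4 groups. The cGAMP groups received 3'3'-cGAMP, a cyclic dinucleotide made by bacteria, for 12 hours. The labels give no age or sex of the mice and no batch. They do not tie control and cGAMP libraries of equal number to a mouse. The 3 mice of a genotype supplied 6 libraries, so some libraries shared a mouse. The p-values therefore measure only the spread between these libraries.

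Interferon-stimulated genes are switched on when type I interferon binds its receptor, IFNAR. The receptor's kinases, JAK1 and TYK2, then set off assembly of the complex ISGF3, which binds a DNA element called the ISRE. STING reaches the same genes upstream of this loop, by activating the kinase TBK1 and the factor IRF3, which drive interferon-beta transcription. IRF3 can also bind some of these elements itself. The list covers products with unlike roles, from nuclear body scaffolds and RNA helicases to nucleotide enzymes, ubiquitin ligases, surface antigens and mitochondrial proteins.

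Libraries held 26490593 to 31417833 assigned counts, and all 38 genes passed the filter on low counts among 14473 tested genes. Levels are given per library, in replicate order 1 to 3, as CPM, the library-scaled count unit of edgeR after TMM normalisation. Tmem173 itself measured 91.2, 102 and 92.7 CPM in the untreated wild type libraries, and 44.7, 49.2 and 48.0 CPM with cGAMP. The libraries labelled Tmem173-/- measured 80.2, 94.7 and 103 CPM untreated, and 82.9, 101 and 95.9 CPM with cGAMP. Untreated libraries of the genotypes overlapped, so each comparison of genotypes rests on the labels. Summed CPM of 6 B cell markers lay at 4585 to 5559 in wild type controls and 3237 to 4004 after cGAMP. Markers of other cells were much lower, but 6 T cell markers summed to 7.02 CPM in wild type control 1 and 15.8 CPM in wild type cGAMP 1. They reached at most 1.46 CPM in the other 10 libraries, and 5 neutrophil markers also peaked in the same pair, at 9.12 and 23.7 CPM. In these bulk samples fewer cells of a type and less RNA per cell cannot be told apart.

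In wild type cells cGAMP was followed by a rise of 31 of the 38 genes. Another 2, Cnp and Ly6e, fell, and 5 did not pass the test (edgeR quasi-likelihood, Benjamini-Hochberg adjusted p under 0.05 over all tested genes). Of all tested genes, 22.4% rose and 25.4% fell in the same comparison, 47.8% in either direction. Among the 38, 24 rose at least 2-fold, against 6.76% of all tested genes. The median log2 fold change was 1.16, beside -0.00 for all tested genes, and the range ran from -0.78 (Cnp) to 3.41 (Phf11d). In 31 genes all 3 wild type cGAMP libraries lay above all 9 other libraries, against 21.6% of all tested genes. Against the wild type controls alone the count was the same 31 genes, beside 26% of all tested genes. Without both replicate 1 libraries of wild type, which carried the T cell and neutrophil transcripts, 30 rose and 2 fell. In that fit 2487 of 14787 tested genes rose and 3056 fell.

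**Figure D1:**
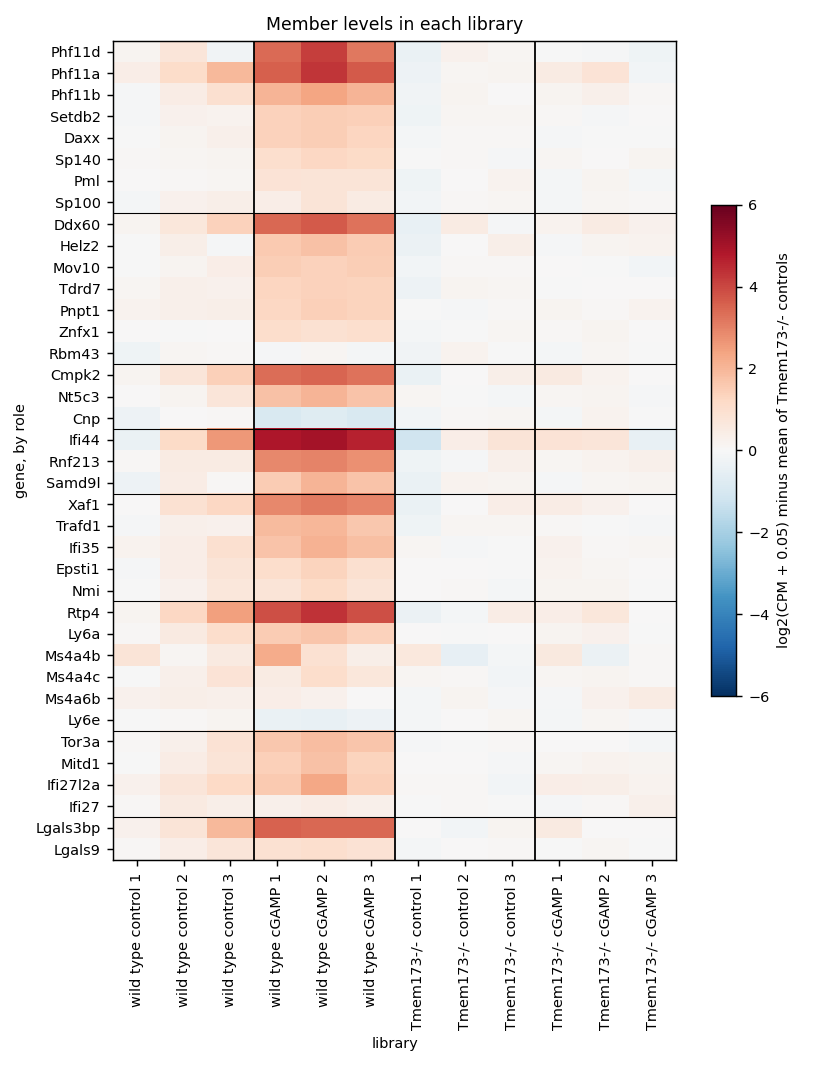
Level of each of the 38 genes (rows, grouped by role and ordered within a role by the wild type response) in each of the 12 libraries (columns), as log2(CPM + 0.05) minus the mean of the Tmem173-/- controls. Of the wild type cGAMP columns most rows are red, also for Ms4a4b and Ms4a4c, which did not pass against wild type controls, and the Tmem173-/- cGAMP columns stay close to white.

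The nuclear body and chromatin group held 8 genes, and all 8 rose, 6 of them at least 2-fold. Phf11d encodes a PHD finger protein. It went from 1.14, 1.69 and 0.848 CPM in wild type controls to 11.2, 18.8 and 9.36 CPM after cGAMP. All 6 Tmem173-/- libraries lay between 0.752 and 1.21 CPM, so the 3 treated wild type libraries stood clear of the rest. Its log2 fold change of 3.41 (SE 0.30) was the largest of the 38, with adjusted p = 1.86e-07 by edgeR. On log2(FPKM + 1), which compresses low genes, the same change was 2.22.

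Its neighbours in the list, Phf11a and Phf11b, rose too. Phf11a went from 3.78, 6.12 and 11.0 CPM to 35.1, 56.3 and 36.6 CPM (log2 fold change 2.61, SE 0.35). Phf11b went from 53.9, 77.1 and 109 CPM to 236, 291 and 236 CPM (1.67, SE 0.20). Neither gene's treated and control libraries overlapped. Setdb2, 36.5 kb from Phf11d with 1 gene between them, encodes a protein of the histone lysine methyltransferase family. It went from 25.4, 31.6 and 31.2 CPM to 68.4, 74.3 and 71.1 CPM (1.28, SE 0.11). The 4 genes lie on chromosome 14 between 59276913 and 59440884 (GRCm38). Phf11a and Phf11b are close copies: 35.2% of the distinct 50-base stretches in Phf11a exons and 47.0% of those in Phf11b exons also occur in exons of other genes, mainly of each other. Reads can be split between them, so their separate values are uncertain.

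The 250 bases before the RefSeq start (GRCm38.p6) of these copies are shown because they are nearly identical and hold the same ISRE core. Capitals mark the core, searched as GAAA and GAAA with any 2 bases (NN) between them, on either strand. Both are read on the minus strand, Phf11a at chr14:59297523-59297772 and Phf11b at chr14:59341331-59341580.
Phf11a: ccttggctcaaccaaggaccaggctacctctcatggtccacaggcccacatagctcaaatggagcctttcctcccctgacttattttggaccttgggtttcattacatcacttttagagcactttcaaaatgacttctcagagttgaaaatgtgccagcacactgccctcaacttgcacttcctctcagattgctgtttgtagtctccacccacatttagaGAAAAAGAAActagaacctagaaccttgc
Phf11b: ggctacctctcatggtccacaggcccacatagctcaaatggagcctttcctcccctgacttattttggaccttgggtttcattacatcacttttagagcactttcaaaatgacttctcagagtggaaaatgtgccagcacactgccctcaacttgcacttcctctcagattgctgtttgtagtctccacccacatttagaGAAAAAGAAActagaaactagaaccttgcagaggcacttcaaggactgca
Aligned over 229 bases, these stretches were 99.1% identical, and the longest identical run was 123 bases. Against the stretch before Phf11d they were 71.6% and 72.4% identical, and no core with 2 bases between was found in the Phf11d window. A similar run, GAAACGAAA, crosses the Phf11d start, but its shorter gap cannot match the search. Phf11d had the largest fold change of the 3, from a level far below that of Phf11b.

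The other 4 genes of the group encode nuclear proteins linked to PML nuclear bodies. PML scaffolds these round assemblies, which concentrate SUMO-modified proteins. Pml went from 352, 368 and 373 CPM to 609, 604 and 588 CPM, a tight rise of 1.65-fold (log2 0.72, SE 0.11). Daxx, the histone chaperone that PML recruits, went from 101, 115 and 126 CPM to 269, 284 and 245 CPM (1.22, SE 0.09). Sp140, a bromodomain protein of the speckled family, went from 344, 352 and 371 CPM to 662, 765 and 734 CPM (1.02, SE 0.09). Its relative Sp100 had the smallest change of the group, from 384, 500 and 534 CPM to 547, 716 and 585 CPM (0.38, SE 0.13, adjusted p = 0.026 by edgeR). In Sp100 the lowest treated library lay only just above the highest control. Its call was lost without wild type control 1 (log2 0.25), without wild type cGAMP 2 (0.26) and without both wild type replicate 1 libraries (0.33). In Sp140, 57.3% of the exonic 50-base stretches also occur in other genes, mainly the antisense gene Gm17017, so its level is uncertain.

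Of the 7 genes for RNA helicases and RNA handling, 6 rose and Rbm43 did not pass. Ddx60, a DExD/H-box helicase linked to sensing of viral RNA, went from 4.70, 6.76 and 11.1 CPM to 46.4, 53.6 and 40.1 CPM. Every treated library was several times above every control, and the log2 fold change was 2.63 (SE 0.27, adjusted p = 4.40e-06 by edgeR). Its upstream stretch (chr8:61927837-61928086, plus strand) is shown because it holds 2 separate ISRE cores close to the start.
Ddx60: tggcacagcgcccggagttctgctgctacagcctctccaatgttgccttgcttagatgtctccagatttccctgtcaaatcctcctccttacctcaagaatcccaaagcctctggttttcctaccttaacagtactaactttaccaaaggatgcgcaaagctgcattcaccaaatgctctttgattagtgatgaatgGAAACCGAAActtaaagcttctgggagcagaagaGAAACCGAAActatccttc
The cores, again in capitals, begin 53 and 19 bases before the start. No exonic 50-base stretch of Ddx60 was shared with another gene.

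Helz2, a helicase and coactivator of nuclear receptors, was the most abundant of the group in CPM. It went from 387, 495 and 366 CPM to 1167, 1312 and 1123 CPM (1.53, SE 0.16). Mov10, a helicase that works with Argonaute and nonsense-mediated decay, rose by a log2 fold change of 1.25, and Tdrd7, a tudor domain protein, by 1.10. Pnpt1, the mitochondrial exoribonuclease PNPase, rose by 1.06. Znfx1, a helicase that senses viral RNA at mitochondria, went from 94.6, 92.6 and 93.3 CPM to 196, 178 and 185 CPM (0.99, SE 0.08). It overlaps the noncoding gene Zfas1 on the opposite strand, and the strand setting of the counting is not given in the sources used here. Rbm43, an RNA-binding protein, was at 20.3, 26.6 and 25.4 CPM in controls and 23.6, 26.7 and 22.8 CPM after cGAMP. These libraries overlapped fully, with a log2 difference of 0.02 (limma-voom 95% interval -0.25 to 0.30).

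The 3 nucleotide enzymes went in different directions. Cmpk2, the mitochondrial UMP-CMP kinase, went from 11.5, 16.8 and 27.6 CPM to 104, 114 and 97.6 CPM (2.50, SE 0.28). Nt5c3, a pyrimidine nucleotidase that removes phosphate from UMP and CMP, went from 40.7, 45.4 and 67.8 CPM to 137, 169 and 132 CPM (1.51, SE 0.16). Both gained without overlap. Cnp, a cyclic nucleotide phosphodiesterase best known from myelin, fell from 248, 318 and 325 CPM to 164, 189 and 166 CPM. Its log2 fold change was -0.78 (SE 0.12, adjusted p = 4.51e-05 by edgeR), and each treated library was below each control. Cnp overlaps Dnajc7 on the opposite strand, and reads of the overlap cannot be assigned without the strand.

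All 3 genes of the antiviral effector group rose at least 2-fold. Rnf213, a giant ubiquitin ligase that acts on intracellular bacteria, went from 196, 257 and 259 CPM to 1387, 1452 and 1253 CPM. The log2 fold change was 2.52 with a small error (SE 0.14), and its adjusted p of 2.58e-09 by edgeR was the lowest of the 38. Ifi44, a GTPase-like antiviral protein, went from 0.321, 1.06 and 2.93 CPM to 14.0, 15.4 and 12.0 CPM (3.26, SE 0.57). The treated libraries agreed closely while the controls ranged widely, and without wild type control 3 the change was 4.31. Samd9l, an interferon-induced inhibitor of translation, went from 116, 196 and 151 CPM to 408, 589 and 472 CPM (1.66, SE 0.20).

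All 5 signalling regulators rose, 3 of them at least 2-fold. Xaf1, a partner of the caspase inhibitor XIAP, went from 16.6, 30.7 and 38.9 CPM to 120, 143 and 125 CPM (2.17, SE 0.28). Trafd1, a zinc finger protein that dampens Toll-like receptor signalling, rose by 1.68, and Ifi35 by 1.32. Ifi35 binds NMI, and the pair is released as danger signals. Nmi had the smallest change of the group, from 40.1, 49.6 and 64.5 CPM to 70.7, 90.3 and 69.6 CPM (0.58, SE 0.14). Its lowest treated library was close to control 3. Epsti1 rose by 0.72.

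Of the 6 surface and membrane genes, 2 rose, 1 fell and 3 did not pass. Rtp4, a chaperone that carries G protein-coupled receptors to the surface, went from 8.62, 18.2 and 42.8 CPM to 113, 158 and 112 CPM. Its controls spanned a wide range but stayed below every treated library (2.46, SE 0.51). Without wild type control 3 the log2 fold change was 3.25. Ly6a, the GPI-anchored antigen Sca-1, went from 138, 186 and 267 CPM to 375, 409 and 339 CPM (0.93, SE 0.18). In Ly6a, 19.0% of exonic 50-base stretches also occur in other genes, mainly Ly6c1 and Ly6i. Ly6e, a GPI-anchored protein that blocks entry of some viruses, was the most abundant of the 38 in control FPKM and fell. It went from 1446, 1531 and 1648 CPM to 1112, 1098 and 1185 CPM (-0.45, SE 0.10, adjusted p = 0.00205 by edgeR), and the groups did not overlap.

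The 3 Ms4a genes encode membrane proteins of the family that includes CD20, and none passed. Ms4a4b and Ms4a4c each passed in 3 of 16 alternative fits. Ms4a4c was at 281, 351 and 506 CPM in controls and 397, 593 and 453 CPM after cGAMP (log2 0.34, 95% interval -0.01 to 0.74). Ms4a6b was at 23.7, 24.9 and 24.6 CPM and at 26.3, 23.8 and 20.1 CPM (-0.06, interval -0.36 to 0.22). Ms4a4b, known mainly from T cells, was at 3.31, 2.08 and 2.79 CPM and at 9.17, 3.58 and 2.46 CPM (0.89, adjusted p = 0.105 by edgeR). Its 1 high library, wild type cGAMP 1, was also the library with the highest T cell marker sum, 15.8 CPM. The part of T cell RNA in the Ms4a4b value was not tested, but without that library the log2 difference was 0.14.

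The mitochondrial, ER and endosomal group held 4 genes, of which 3 rose. Tor3a, a torsin ATPase of the endoplasmic reticulum, went from 65.6, 76.2 and 111 CPM to 192, 221 and 196 CPM (1.27, SE 0.14). Mitd1, which binds ESCRT-III at the end of cell division, rose by 1.07. Ifi27l2a, a small hydrophobic protein, went from 243, 334 and 468 CPM to 597, 1024 and 538 CPM (1.05, SE 0.26). Replicate 2 was far above the other treated libraries, and in a fit of only the wild type groups the adjusted p was 0.0555 (edgeR). Ifi27, of the same family, was at 26.8, 37.1 and 32.3 CPM and at 31.2, 34.5 and 30.8 CPM (0.01, 95% interval -0.24 to 0.27).

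Both galectin-related genes rose. Lgals3bp, a secreted glycoprotein that binds galectins, went from 10.5, 14.8 and 33.9 CPM to 102, 95.2 and 95.5 CPM. Its treated libraries were nearly equal although control 3 was far above the other controls (2.31, SE 0.36). Without that control the log2 fold change was 2.94. Lgals9, the galectin that binds TIM-3, went from 94.2, 119 and 149 CPM to 169, 180 and 168 CPM (0.51, SE 0.12).

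**Figure D2:**
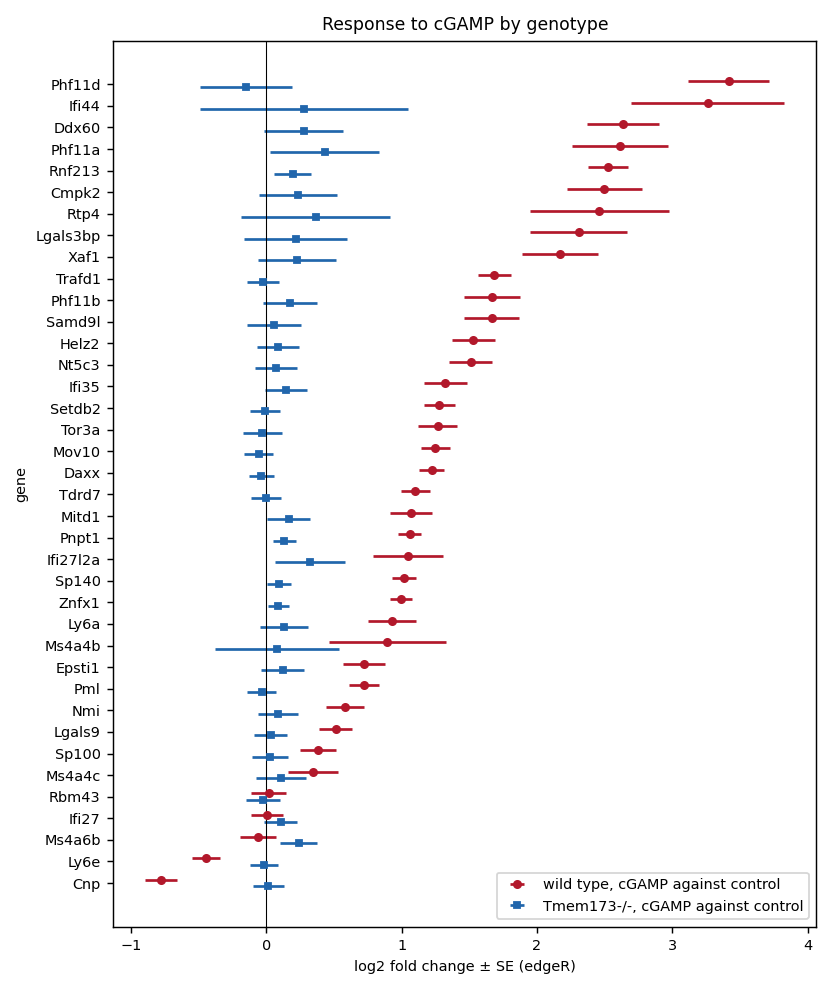
Log2 fold change after cGAMP (x axis, ± SE from edgeR) for each of the 38 genes (y axis) in wild type (red circles) and Tmem173-/- cells (blue squares). Wild type values run from -0.78 to 3.41, and the Tmem173-/- values stay between -0.15 and 0.43.

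Several of the 38 lie close together. Consecutive genes of the list lay within 200 kb in 9 pairs, made of 15 genes, and 5 of these pairs had 1 to 4 other genes between them. In 7 of the 9 pairs the log2 ratio of the neighbours separated wild type cGAMP from control without overlap, as in 47.7% of 12171 pairs of consecutive tested genes within the same distance. The exact two-sided permutation p was 0.1 in each of the 7, the smallest that 3 against 3 libraries can give, and 0.129 after adjustment over the 9 pairs. Ly6e fell and Ly6a rose although 35.0 kb apart, and the log2 ratio of Ly6e to Ly6a differed by -1.42 between cGAMP and control. Ifi27 and Ifi27l2a lie 1.9 kb apart, and their log2 ratio differed by -1.02. Rbm43 and Nmi lie 13.3 kb apart, and their log2 ratio differed by -0.58. Sp140 and Sp100 are 5.0 kb apart, and the log2 ratio of Sp140 to Sp100 differed by 0.63. On chromosome 14 the log2 ratio differed by 2.13 for Phf11d to Setdb2, by 1.00 for Phf11a to Phf11b and by -1.69 for Phf11b to Phf11d. The Ms4a pairs overlapped between groups, with exact permutation p = 0.7 for Ms4a4c and Ms4a4b and p = 0.2 for Ms4a4b and Ms4a6b.

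**Figure D3:**
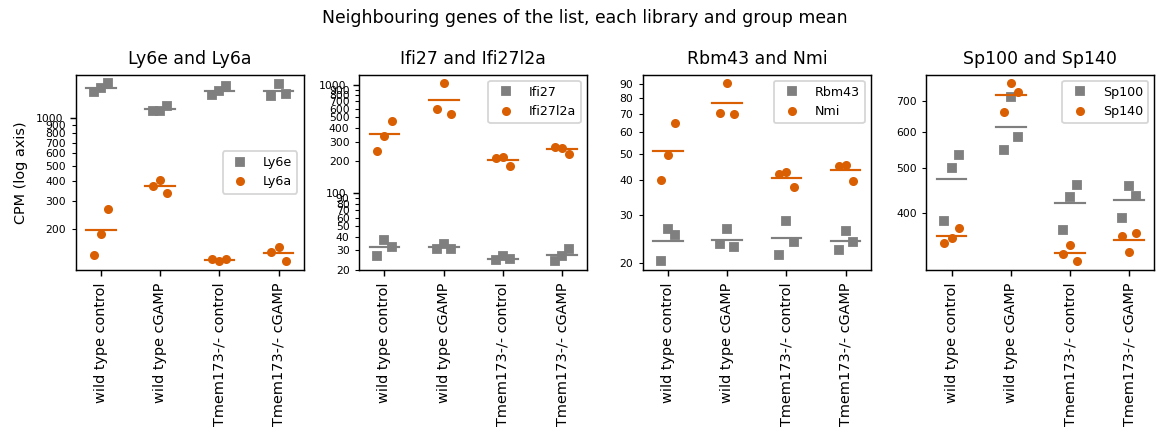
CPM (log axis) of 4 pairs of genes that are neighbours within the list in each library (points) with group means (lines), in the 4 groups. In wild type, Ly6e falls while Ly6a rises, the points of Ifi27 and Rbm43 overlap between treatments beside Ifi27l2a and Nmi, and Sp140 lies below Sp100 in each control and above it in each treated library.

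The fold changes differed with the starting level. FPKM divides by a length, which puts levels of different genes on a common scale, but the length the authors used is often shorter than the deposited gene length. In wild type controls Ly6e led at 1399 ± 50 FPKM (SD, n = 3), then came Ifi27l2a at 725 ± 200 (SD, n = 3) and Ms4a4c at 396. At the bottom were Ifi44 at 0.69 and Phf11d at 0.60 FPKM. After cGAMP Ifi27l2a stood at 1586 ± 587 (SD, n = 3), Ly6e at 1078 ± 40 (SD, n = 3) and Sp140 at 754 ± 54 (SD, n = 3). After cGAMP Ifi27l2a lay above Ly6e in each library, at 1320, 2259 and 1179 FPKM beside 1063, 1048 and 1123 FPKM. In controls the order depended on the length used, and after cGAMP so did the order below Ifi27l2a. The deposited FPKM of Ly6e implies 1070 bases, whereas its deposited gene length is 3784, and for Ifi27l2a both are 463. Per deposited gene length Ifi27l2a led in controls at 725 and Ly6e came next at 395. By that length Ly6a stood at 317 after cGAMP, Ly6e at 305 and Sp140 at 221. Set against FPKM in Tmem173-/- controls, which do not enter the wild type fold change, the log2 fold change had a Spearman rho of -0.586 and a Pearson r of -0.704 with log2 FPKM. These describe 38 genes, which are not independent and share their libraries. Split at the median of 31.7 FPKM, 9 of the 19 lower genes and 0 of the 19 higher genes had a wild type log2 fold change of at least 2. With levels per deposited gene length rho was -0.59 and the split counts were the same. Whether level and fold change are related in the same way over all tested genes was not tested. The medians of the lower and higher genes by FPKM were closer, at 1.28 and 1.02.

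**Figure D4:**
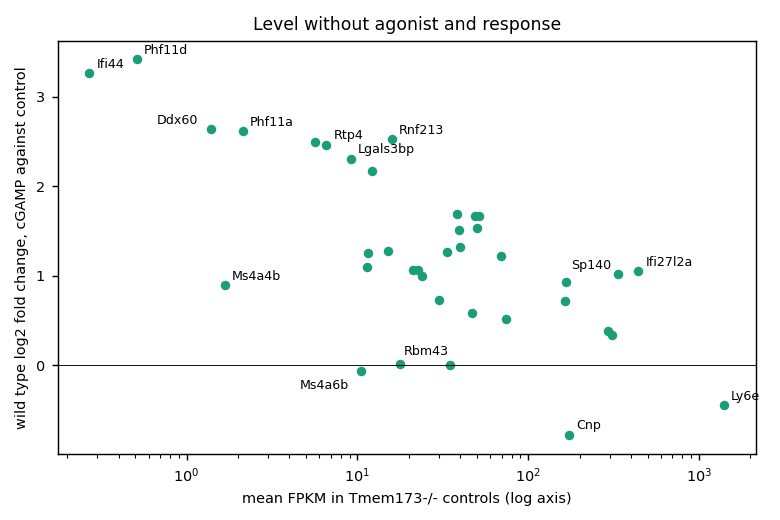
Mean FPKM in Tmem173-/- controls (x axis, log scale) against the wild type log2 fold change after cGAMP (y axis), with 1 point per gene and some genes named. Genes with a log2 fold change of at least 2 all lie to the left, below 31.7 FPKM, and Ly6e lies at the far right below 0.

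In cells labelled Tmem173-/- none of the 38 genes passed the test after cGAMP, as for all tested genes (0% higher and 0% lower by edgeR). With no adjustment, 0 of the 38 had p under 0.05 by edgeR, and limma-voom and DESeq2 gave 0 as well. Among all tested genes 0.912% reached it upward and 0.491% downward with edgeR, so 0 of 38 lies near that share. The fitted log2 differences had a median of 0.09, beside -0.003 for all tested genes. They ran from -0.15 (Phf11d) to 0.43 (Phf11a), and 28 of 38 were above 0. For 32 genes the 95% interval from limma-voom lay within 1 log2 unit on either side of 0. For Rnf213 it ran from -0.07 to 0.49, and for Pml from -0.25 to 0.19. The widest was that of Ifi44, from -1.36 to 2.19, so a change of the size seen in other genes was not detectable there. The other 5 genes with a bound beyond 1 log2 unit were Rtp4, Ddx60, Phf11a, Phf11d and Ms4a4b. In Ifi27l2a and Mitd1 all 3 cGAMP libraries lay above all 3 controls, as in 3.2% of all tested genes. In 0 of the 38 they lay below, against 3.44%. Ifi27l2a was at 213, 216 and 181 CPM in controls and 269, 260 and 232 CPM after cGAMP.

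The difference between the responses of the genotypes was itself tested. It passed for 29 of the 38 genes, 27 with the larger change upward in wild type and 2, Cnp and Ly6e, downward. Of all tested genes, 14.1% passed upward and 17.5% downward. The median difference was 1.14 on the log2 scale. Phf11d had a difference of 3.57 (SE 0.45), Rnf213 of 2.33 (SE 0.20), Trafd1 of 1.71 (SE 0.17) and Daxx of 1.26 (SE 0.13). Of the genes that rose in wild type, Sp100, Nmi, Rtp4 and Ifi27l2a did not pass. Rtp4 had a difference of 2.10 but an SE of 0.74 (adjusted p = 0.062 by edgeR). The calls of Ifi44, Epsti1, Ly6a, Ly6e and Lgals9 were lost in 7 to 11 of 21 alternative fits, mostly with 1 library left out. Epsti1 lost its call in 11, Ly6e and Lgals9 in 10, Ifi44 in 8 and Ly6a in 7. For Ifi44 the difference became 4.03 without wild type control 3, and for Lgals3bp 2.72. Between the cGAMP groups, 33 genes were lower in Tmem173-/- and Cnp and Ly6e were higher, beside 23.5% and 24.9% of all tested genes (48.3% in either direction). The 3 that did not pass were Rbm43, Ms4a6b and Ifi27. Ms4a4b was lower by 1.26 on the log2 scale there, and without wild type cGAMP 1 the difference was -0.51 and no longer passed.

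Without cGAMP most of the 38 genes were fitted lower in the Tmem173-/- libraries than in wild type, but no gene passed. By edgeR 0 of 38 passed in either direction, as for all tested genes (0% and 0%). The fitted difference was below 0 for 36 of the 38, with a median of -0.34, beside -0.007 for all tested genes. An unadjusted p under 0.05 was reached by 21 genes with edgeR, all lower, by 19 with limma-voom and by 20 with DESeq2. Among all tested genes 4.39% reached it in that direction with edgeR. With no filter on low counts, 16 of the 38 passed as lower, beside 119 of all 26792 genes in that fit. In 10 genes all Tmem173-/- controls lay below all wild type controls, against 4.08% of all tested genes, and in 0 genes above. They were Sp140, Phf11a, Pnpt1, Ifi35, Ly6a, Ms4a6b, Ifi27, Ifi27l2a, Tor3a and Lgals3bp.

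The wild type controls differed among themselves in these genes more than the Tmem173-/- controls did. The mean log2 CPM over the 38 was 5.40, 5.78 and 6.06 in wild type controls and 7.02, 7.20 and 6.93 in wild type cGAMP. In Tmem173-/- it was 5.20, 5.41 and 5.45 in controls and 5.50, 5.52 and 5.39 after cGAMP. Wild type control 3 was the highest of the 3 controls in 27 genes, against 37.3% of all tested genes, and control 1 the lowest in 34, against 29.6%. Wild type cGAMP 2 was the highest of the treated wild type libraries in 31 genes, against 36.6% of all tested genes. Control 3 also exceeded all 6 Tmem173-/- libraries in 29 genes, against 28.5% of all tested genes. The ratio of the highest to the lowest wild type control had a median of 1.60 over the 38 and 1.29 over all tested genes. It was 1.25 over the 38 in Tmem173-/- controls. Genes with a larger ratio of wild type control 3 to control 1 tended to have a larger ratio of wild type cGAMP to Tmem173-/- cGAMP, with r = 0.62 and rho = 0.51 over the 38 genes. Over 11714 genes with a mean of at least 1 CPM r was -0.04. The genes share these libraries, so the values are descriptions. Without wild type control 3 the median log2 fold change after cGAMP was 1.30 in place of 1.16.

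**Figure D5:**
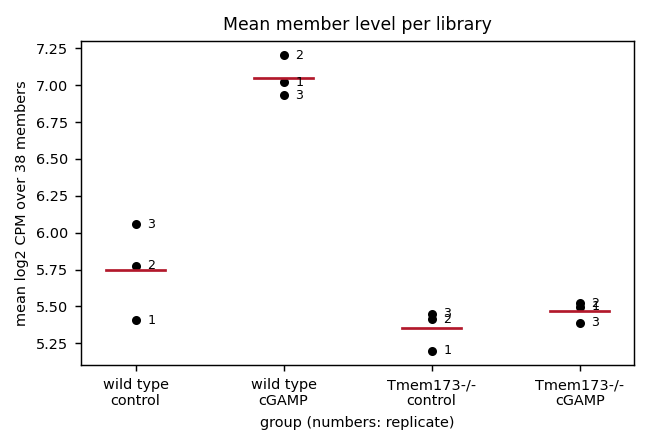
Mean log2 CPM over the 38 genes (y axis) in each library (points, with replicate numbers) of the 4 groups (x axis), with the group means as lines. The wild type controls spread from 5.40 to 6.06, and the 3 wild type cGAMP libraries lie between 6.93 and 7.20, above all others.

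Promoters in RefSeq (250 bases before to 50 after the start, GRCm38.p6) were found for 32 of the 38 genes, all but Ifi27, Ifi27l2a, Ly6a, Ly6e, Rtp4 and Tor3a. The ISRE core (GAAA, NN, GAAA, on either strand) was present in 7 of the 32 (21.9%), against 3.993% of 27025 genes in the same table. The genes were Ddx60, Lgals9, Mitd1, Phf11a, Phf11b, Rbm43 and Tdrd7, and Ddx60, Lgals9 and Rbm43 held 2 cores each, overlapping in Rbm43. Of the 27 matched genes that rose, 6 held a core, and of the 5 others 1 did, Rbm43. For the other 4 genes 1 core before the start is given in capitals with the bases around it, on the strand of the gene, to set those of genes that rose beside that of Rbm43. Where the core reads on the other strand, it appears as TTTC, NN, TTTC. The second Rbm43 core, which begins 218 bases before the start, overlaps the marked core and is not marked. The second Lgals9 core, 16 bases after the start, is not printed.
Lgals9: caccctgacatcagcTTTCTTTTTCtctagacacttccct
Mitd1: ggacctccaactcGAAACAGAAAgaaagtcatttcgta
Tdrd7: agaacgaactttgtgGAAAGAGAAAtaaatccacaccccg
Rbm43: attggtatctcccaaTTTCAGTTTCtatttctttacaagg
The printed Lgals9 stretch spans chr11:78984955-78984994 (minus strand), and its core begins 55 bases before the start. The Mitd1 stretch spans chr1:37890624-37890661 (minus strand), with the core 237 bases before the start. The Tdrd7 stretch spans chr4:45972091-45972130 (plus strand), with the core 191 bases before a RefSeq start inside the annotated gene. The Rbm43 stretch spans chr2:51935363-51935402 (minus strand), with the marked core 224 bases before the start. The longer form, in which CT follows the core, was present in 4 members and 0.303% of genes. The element of interferon-gamma responses (GAS, TTCNNNGAA, its own reverse complement) was present in 2, Ifi35 and Mitd1, against 9.554% of genes. Similar runs with a shorter gap, such as GAAACGAAA in Phf11d, Helz2, Pnpt1 and Xaf1, are not counted as cores. A match is only a run of letters in this window, and the absence of a match says nothing about binding there or elsewhere.

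Genes around this list in the interferon pathway moved as follows in wild type. Of 11 genes of the receptor and ISGF3, 7 rose, 2 fell and 2 did not pass. Irf7, which amplifies interferon production, rose most (log2 fold change 3.84), then Usp18, which blocks the receptor (3.26). Jak1 (-0.54) and Ifnar1 (-0.53) fell, and Ifnar2 (-0.16) and Tyk2 (-0.07) did not pass. Of 29 genes of the large interferon-stimulated families, 27 rose, led by Ifi204 (5.80) and the RNA sensor Ifih1 (5.00). Ifi204 had only 10, 2 and 20 counts in the wild type controls, so the size of its change is uncertain. Gbp2 (0.52) and Gbp3 (-0.16) did not pass. The median of the 29 genes, 2.44, was above the 1.16 of the 38 genes described here. In Tmem173-/- cells no gene of either list passed.

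Partners of the products were measured as well, and their counts stand beside 22.4% of all tested genes that rose and 25.4% that fell. Of 9 nuclear body partners, 5 rose, with Sp110 (1.02) and the ATPase Morc3 (0.62) ahead, and Sumo3 fell (-0.26). Sumo2 (0.26) and the kinase Hipk2 (-0.06) were among those that did not pass. Of 12 pyrimidine nucleotide enzymes, 5 rose and 4 fell. Dctd, the dCMP deaminase (1.27), and Tyms, thymidylate synthase (1.04), rose most, and Cmpk1, the cytosolic relative of Cmpk2 (-0.45), and mitochondrial Tk2 (-0.45) fell most. Nt5e (-0.42), Nt5c (-0.30) and Samhd1 (0.17) did not pass. Of 11 tested RNA decay and helicase partners, 6 rose, led by Exosc2 of the RNA exosome (0.77) and Upf1 (0.70), and Helz fell (-0.58). Rbm47 (-1.09), Upf2 (0.17), Xrn1 (0.17) and Tdrd3 (0.24) did not pass.

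Of 15 relatives in the Ms4a and Ly6 families, 8 were tested. Ly6c2 rose, from 2.60, 1.87 and 6.85 CPM to 38.4, 38.9 and 24.7 CPM (3.17). Ms4a1, which encodes CD20, fell from 717, 826 and 959 CPM to 425, 569 and 495 CPM (-0.75). Ms4a7 was at 0.214, 0.211 and 0.106 CPM in controls and had 0 counts in all 3 treated libraries. Ms4a4a (-0.50), Ms4a6c (-0.38), Ms4a6d (0.95), Ly6d (-0.22) and Ly6k (0.20) did not pass. Ms4a7 is also among the 6 monocyte and macrophage markers, whose sum was 36.3 to 46.5 CPM in wild type controls and 10.7 to 18.7 CPM after cGAMP. Most of that difference was Adgre1, at 23.1, 38.0 and 31.4 CPM in controls and 4.26, 5.27 and 3.70 CPM after cGAMP. Cd68 and Lyz2 overlapped between the groups. The sum of 5 dendritic cell markers was 15.0 to 20.1 CPM in controls and 36.5 to 44.9 CPM after cGAMP. The increase came from Flt3 and Zbtb46, while Itgax and Xcr1 were not higher and Siglech was near 0 in every library. The part of other cells in the levels of the genes above was not tested.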

How the data were processed

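Poly-A RNA from B lymphocytes was sequenced in 12 libraries, 3 for each of 4 groups. The authors deposited a count per gene and library, and an FPKM value derived from it. The submitters' processing notes name fastp, STAR and featureCounts, and the builds GRCm38 and mm10. Versions, annotation release and strand setting are not given in the sources used here. Library totals were 26490593 to 31417833 counts, which is ample for all but the rarest members, such as Ifi44 and Phf11d.

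Counts were fitted in edgeR 4.0.16 (R 4.3.3) with filterByExpr by group, TMM scaling and robust quasi-likelihood F tests, two-sided. The fit had a mean for each group and 5 contrasts, with Benjamini-Hochberg adjustment over 14473 tested genes and a threshold of 0.05. The SE is the log2 fold change over the square root of F. Intervals are from limma-voom (limma 3.58.1). FPKM served for levels between genes and, as log2(FPKM + 1) and log2(FPKM + 0.1), as alternatives. Other alternatives were DESeq2 1.42.0, other scaling, no filter, a replicate block and leaving out each library. Fits were also run on simulated counts of independent libraries, which do not represent libraries that share a mouse. The outcome of that run is not reported here.

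The members and lists were chosen with earlier results of these data known, so lists are described by counts and medians only. Every member is named. Full values are given for the largest and smallest change of each role, for genes that fell or did not pass and for neighbouring relatives, and of other lists for the 2 largest rises and falls and for up to 5 genes that did not pass. Other genes shown in full were chosen after their values were seen. Values of some listed genes are not reported here.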

Additional observations from a re-analysis of the deposited data

Results flagged for a closer look

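In 29 of the 38 genes the response to cGAMP differed between wild type and Tmem173-/- cells by a test of the difference itself (edgeR quasi-likelihood, adjusted over all tested genes, where 31.6% passed in either direction). Values are the wild type log2 fold change minus the Tmem173-/- log2 fold change.

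Among nuclear body and chromatin genes the difference was 3.57 for Phf11d, 2.18 for Phf11a, 1.49 for Phf11b, 1.29 for Setdb2, 1.26 for Daxx, 0.92 for Sp140 and 0.75 for Pml. Among RNA-handling genes it was 2.36 for Ddx60, 1.44 for Helz2, 1.30 for Mov10, 1.11 for Tdrd7, 0.92 for Pnpt1 and 0.91 for Znfx1. The nucleotide enzymes differed by 2.26 for Cmpk2 and 1.44 for Nt5c3, and by -0.79 for Cnp, which fell in wild type.

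The antiviral effectors differed by 2.98 for Ifi44, 2.33 for Rnf213 and 1.61 for Samd9l. Among signalling regulators the difference was 1.94 for Xaf1, 1.71 for Trafd1, 1.18 for Ifi35 and 0.61 for Epsti1. At the surface it was 0.80 for Ly6a and -0.43 for Ly6e, so that the sign differed between these genes. Tor3a differed by 1.30 and Mitd1 by 0.90, and the galectin-related genes by 2.09 for Lgals3bp and 0.48 for Lgals9. The differences of Epsti1, Ly6e, Lgals9, Ifi44 and Ly6a did not pass in 7 to 11 of 21 alternative fits. With 3 libraries in each group, no single library was tested as standing apart within its group.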

How the results depend on the processing

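The count of genes that rose in wild type ranged from 30 to 33 over 17 fits and the count that fell stayed at 2. Over all tested genes, 13717 to 26792 by fit, 2487 to 3773 rose and 3056 to 4050 fell. In Tmem173-/- cells 0 of the 38 passed in 16 fits. Over all tested genes it was also 0, except with no filter on low counts, where 10 rose and 13 fell. Of the 38 genes, 31 passed in wild type in the same direction under all 16 alternatives. Of the genes that passed in the primary fit, only Sp100 (in 3 fits) and Ifi27l2a (in 1) lost their call. The median wild type log2 fold change ran from 1.08 to 1.30 when a library or both replicate 1 libraries were left out, the highest without wild type control 3. The difference between responses passed upward for 23 to 30 of the 38, beside 1568 to 2626 of all tested genes in the same fits. It passed downward for 1 gene (2 in the primary fit) with library totals alone, on log2(FPKM + 1) and log2(FPKM + 0.1), and without both wild type replicate 1 libraries, and for 1 to 2 with libraries left out. With no filter on low counts 16 of the 38 genes passed as lower in Tmem173-/- controls, against 0 in the primary fit. Without the filter 119 of all 26792 genes passed as lower. The core followed by CT was in 4 promoters, against 7. A core lacking its last A, chosen after seeing the data, was in 10. Per deposited gene length, also chosen later, the rho of level and response was -0.59, against -0.586. Causes were not tested.

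Ms4a4b passed with no filter, with the replicate block and without wild type cGAMP 3, and Ms4a4c with library totals alone, with no filter and without wild type control 3. Of 3 genes near 0 the sign turned. Rbm43 ran from -0.099 to 0.086 with single libraries left out and was at -0.075 without both wild type replicate 1 libraries. Ifi27 ran from -0.114 to 0.117 and was at -0.091. Both were below 0 without wild type control 1 and without wild type cGAMP 2. Ms4a6b ran from -0.158 to 0.032, above 0 without wild type cGAMP 3. It was at 0.0081 with library totals alone, 0.00054 on log2(FPKM + 1) and 4.0e-05 on log2(FPKM + 0.1).

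Same-numbered control and cGAMP libraries had correlated deviations of 0.30, 0.22 and 0.08 in wild type and 0.29, 0.10 and 0.17 in Tmem173-/-. Not every pair was over 0.1, so the numbers were not taken as pairing, although each control correlated best with its own number. With a replicate block 32 genes rose and 2 fell in wild type, with a median of 1.16, and 0 passed in Tmem173-/-. The difference then passed for 27 upward and 2 downward, with Ifi44 and Ly6a no longer passing. Contrasts between genotypes could not be fitted with the block. Depth limits the rarest genes: Ifi44 had 5 to 30 counts in some control libraries.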
